A study of Mus musculus with 3 samples.

Results

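The odorant receptor gene cluster of mouse chromosome 2 was examined in RNA from 2-cell mouse embryos, collected at embryonic day 1.5. The cluster was taken by position, as every 10 kb window of chromosome 2 from 85.5 to 89.5 Mb on mm9, which gave 400 of the 272592 windows of the nuclear genome. There was 1 group of 3 libraries, numbered litters 1 to 3 in the labels, and each library held a litter of embryos. The mothers were of a mixed strain with C57/Bl6J and carried LSD1 FL/FL, that is, loxP sites in both copies of the gene for the histone demethylase LSD1. They lacked ZP3::Cre, the transgene whose oocyte promoter would drive recombination, and the series counts their embryos as wild type. The fathers were wild type, given as CB6 males under the crosses and as C57/Bl6J in the growth protocol. All 3 litters share this background, and no group differs in treatment or genotype. Before sequencing the RNA was copied and amplified by SPIA, which works at constant temperature. Alignments of 72 bases were recovered from the coverage that the authors deposited. Litters 1 to 3 gave 34014013, 32431630 and 40474940 nuclear alignments.

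Odorant receptors are the receptor proteins with which sensory neurons of the nose detect volatile molecules. Their genes form the largest gene family of the mouse, lie in dense clusters, and mostly have a coding sequence without introns. A mature olfactory sensory neuron expresses a single receptor gene from a single allele, and most receptor genes have little expression in other tissues. The region is thus rich in genes that are mostly silent outside the nose, and the question put to it was what level these libraries give there.

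The genes of this part of chromosome 2 are known here only by their order in RefSeq on GRCm38.p6. That is a later build than that of the files, so that no gene was placed on the coverage. In this order, a neighbourhood from Olfr987 to Olfr1274 holds 332 genes, of which 293 (88.3%) are Olfr genes. It was built outwards from Pramel7 and allows short runs of other genes between Olfr genes. Its limits were not matched to the 400 windows, so these are not counts of genes in the windows. Of the Olfr genes, 222 are annotated as protein coding and 71 as pseudogenes, and the 222 make up 20% of the 1110 coding Olfr genes of the genome. The other 39 genes include 32 pseudogenes and 3 long noncoding RNAs. The 3 coding genes that are not odorant receptors are Fads2b, of the fatty acid desaturase family, and Pramel7 and Pramel6, which adjoin each other. Both Pramel genes belong to the PRAME-like family, and Pramel7 is known from the inner cell mass of the mouse blastocyst and from embryonic stem cells. The nearest coding odorant receptor genes on the 2 sides of this pair are Olfr1126 and Olfr153.

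The 250 bases before the annotated start of these 4 genes are shown, for the receptor genes and the PRAME-like pair between them. They are the gene's strand of RefSeq on GRCm38.p6, chromosome 2. Capitals mark the motifs TATAAA (letters as in a TATA box) and TAATTA (as in a homeodomain core), on either strand and at any distance. The palindromic EBF core was searched likewise and marks none of the 4. A match is of letters only, and its use as a promoter element was not tested. Matches of different motifs may overlap.
Olfr1126: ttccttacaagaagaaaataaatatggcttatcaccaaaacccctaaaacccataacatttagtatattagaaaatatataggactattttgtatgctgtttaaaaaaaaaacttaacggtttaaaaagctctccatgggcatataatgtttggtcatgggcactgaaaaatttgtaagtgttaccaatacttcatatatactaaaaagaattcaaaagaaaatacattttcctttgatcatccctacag
Pramel7: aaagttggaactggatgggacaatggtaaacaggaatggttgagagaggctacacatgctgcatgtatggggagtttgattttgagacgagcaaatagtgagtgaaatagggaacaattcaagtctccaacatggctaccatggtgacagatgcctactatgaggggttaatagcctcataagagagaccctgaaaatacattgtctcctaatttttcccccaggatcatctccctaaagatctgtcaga
Pramel6: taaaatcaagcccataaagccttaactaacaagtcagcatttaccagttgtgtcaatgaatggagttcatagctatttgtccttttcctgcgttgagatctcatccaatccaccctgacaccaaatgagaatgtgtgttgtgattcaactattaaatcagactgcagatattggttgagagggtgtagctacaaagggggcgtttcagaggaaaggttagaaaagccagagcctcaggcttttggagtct
Olfr153: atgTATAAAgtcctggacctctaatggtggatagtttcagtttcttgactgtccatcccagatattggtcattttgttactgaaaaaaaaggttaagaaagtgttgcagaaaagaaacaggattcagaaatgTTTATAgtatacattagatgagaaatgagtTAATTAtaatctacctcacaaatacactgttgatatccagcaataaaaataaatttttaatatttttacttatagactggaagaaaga

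The receptor genes' sequences were poorer in G and C. Olfr1126 had 28.8% G and C and Olfr153 had 29.6%, against 43.2% before Pramel7 and 42% before Pramel6. Of the 222 coding Olfr genes, 186 had such a sequence in the table, with a median of 30.8% G and C (quartiles 26.9% and 33.2%), against 52% over all 27025 promoters. A CG pair was missing from 46.2% of the 186 and from 8.26% of all promoters. TATAAA was found in 97 of the 186 (52.2%), against 13% of all promoters, and TAATTA in 45 (24.2%), against 4.9%. The EBF core was found in 0 of the 186 and in 0.788% of all promoters. TATAAA and TAATTA are made only of A and T, and the EBF core mostly of G and C. The part of base composition in these shares was not tested. Of the 222 gene models, 168 have a length that is a multiple of 3 and 152 are under 1000 bases. Many of these sequences thus precede a coding start and not a transcription start. Olfr1126, at 945 bases, and Olfr153, at 924, have both traits, while the models of Pramel7 and Pramel6 have 3331 and 4301 bases. The sequences of the receptor genes and of the PRAME-like pair may therefore precede unlike kinds of start.

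Alignments over the cluster were few. Windows without any alignment numbered 264 of 400 in litter 1 (66%, 95% Wilson interval 61.2% to 70.5%), 223 in litter 2 (55.75%, 50.9% to 60.5%) and 250 in litter 3 (62.5%, 57.7% to 67.1%). Over the litters this was 61.4% ± 5.21 (SD, n = 3), against 51.0% ± 3.94 of all nuclear windows. In every litter the share was higher in the cluster than in the nuclear genome, where it was 53.2%, 46.4% and 53.2%. Litter 2 had the fewest empty windows both in the cluster and in the genome. The intervals treat the 400 windows as independent draws, which neighbouring windows are not, and they do not cover differences between litters. Copies made during amplification were not marked, and reads are not independent molecules.

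In 149 windows (37.25%, 95% Wilson interval 32.7% to 42.1%) no litter had an alignment, against 32.7% of all nuclear windows. Another 116 windows (29%) had alignments in 1 litter, against 19.4% of nuclear windows. Alignments in all 3 litters were found in 77 windows (19.25%), against 31.9% of nuclear windows. The cluster thus had fewer windows covered in every litter and more covered in a single litter than the genome as a whole. No test is given, because windows are not replicates and neighbouring windows are not independent. Windows that hold a gap of the assembly were not separated from the others, here or in the genome.

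A count of 0 still allows up to 3 alignments. In a 10 kb window that limit is 0.00882, 0.00925 and 0.00741 RPKM for litters 1 to 3, where RPKM is the number of alignments per kb in each 1000000 alignments to nuclear sequence. In 286 windows of the cluster (71.5%) every litter had at most 3 alignments, against 56% of nuclear windows. The windows with 1 to 3 alignments numbered 71, 89 and 84 in litters 1 to 3, and those with more numbered 65, 88 and 66. Among windows with any alignment, the median count was 3 in each litter of the cluster and 7 to 8 in the litters over all nuclear windows. At the edges of the region the counts were equally low. The last window before it held 1, 0 and 0 alignments, and the first window inside held 0, 0 and 2. The last window inside held 1, 0 and 0, and the first window after it held 0 in each litter.

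**Figure D1:**
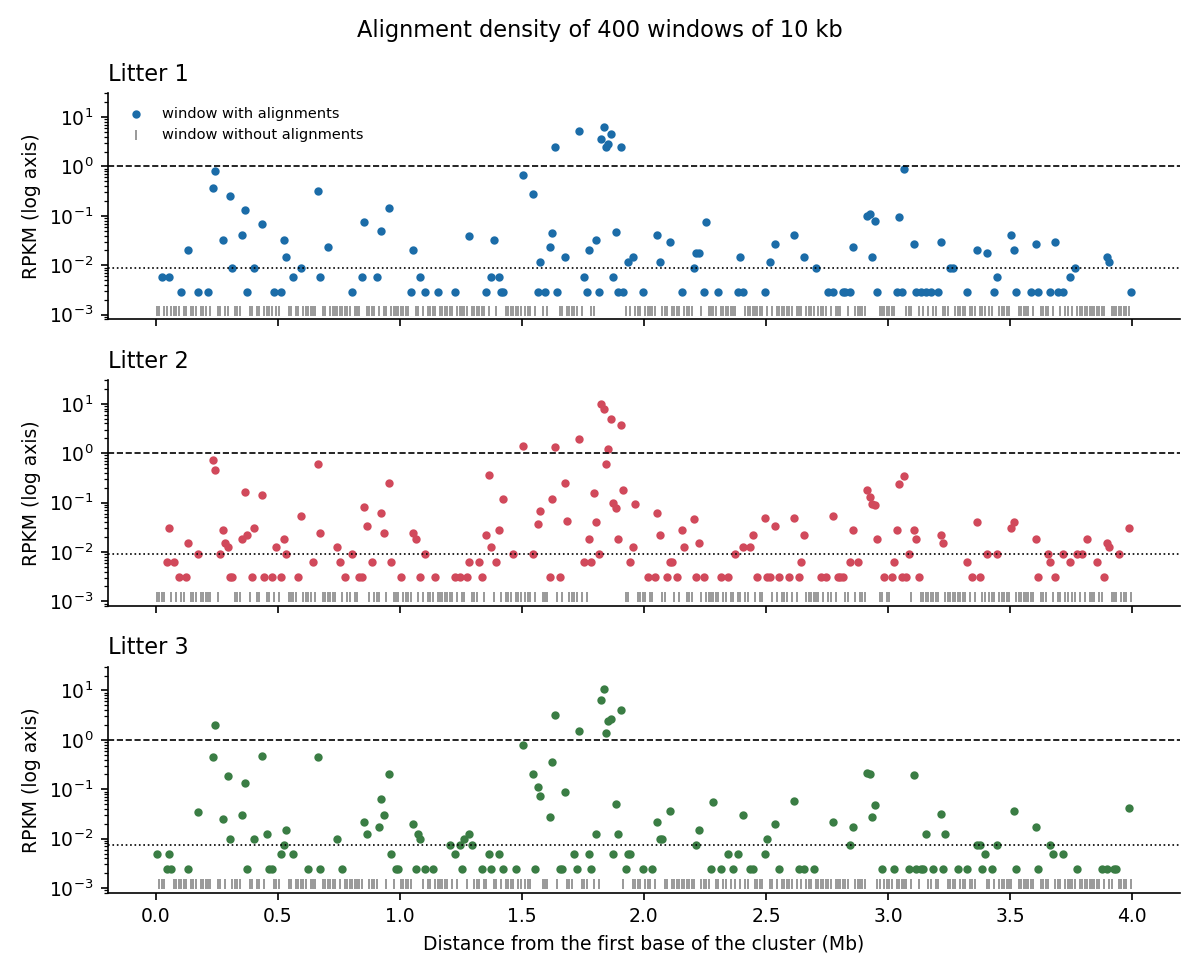
Alignment density (RPKM, log axis) of each of the 400 windows of 10 kb by distance from the first base of the cluster, 1 panel per litter. Grey ticks mark windows without alignments (264, 223 and 250 in litters 1 to 3), the dashed line is 1 RPKM and the dotted line the limit of 3 alignments. The windows above 1 RPKM in all litters lie between 1.5 and 2 Mb from the start.

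The alignments that were present lay mostly in a single 500 kb stretch. Litters 1 to 3 had 12261, 12854 and 15929 alignments in the cluster as a whole, of which 10704, 11000 and 13663 fell between 87.0 and 87.5 Mb, which is 86.2% ± 0.944 (SD, n = 3). The litters gave nearly the same share, at 87.3%, 85.6% and 85.8%. None of the other 7 stretches of 500 kb held more than 8.47% of a litter's alignments in the cluster. The stretch from 85.5 to 86.0 Mb came next, with 598, 561 and 1349 alignments. The stretch from 89.0 to 89.5 Mb had the fewest by mean density, with 61, 78 and 53. Its 0.00367 ± 0.00110 RPKM compares with 0.661 ± 0.0274 between 87.0 and 87.5 Mb. The 500 kb stretch was chosen after the values were seen, and values with and without it are given as descriptions.

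A level of at least 1 RPKM in every litter was found in 7 windows (1.75%), against 3.16% of nuclear windows. All 7 lay between 87.0 and 87.5 Mb, and 0 of the other 350 windows reached this level in all litters. Among these 350, 1 window reached it in any litter. It lies from 85.74 to 85.75 Mb and had 275, 147 and 795 alignments in litters 1 to 3. A level of 1 RPKM corresponds to 340, 324 and 405 alignments in a window of litters 1 to 3.

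The window from 87.33 to 87.34 Mb had the highest mean of the cluster. It held 2158, 2497 and 4253 alignments in litters 1 to 3, which is 8.18 ± 2.12 RPKM (SD, n = 3). Its neighbour from 87.32 to 87.33 Mb held 1225, 3249 and 2553, or 6.64 ± 3.22 RPKM. Litter 2 was highest in this neighbour and litter 3 in the window beside it, so that the litters did not keep 1 order. By mean density, 1970 and 2504 windows of the nuclear genome (0.723% and 0.919%) were higher than these 2.

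Moderate levels were found in 5 further windows that passed 1 RPKM in all litters. The window from 87.36 to 87.37 Mb held 1580, 1560 and 1064 alignments (4.03 ± 1.21 RPKM), and that from 87.40 to 87.41 Mb held 842, 1192 and 1662 (3.42 ± 0.845 RPKM). The window from 87.23 to 87.24 Mb held 1815 in litter 1 against 638 and 623 in litters 2 and 3 (2.95 ± 2.08 RPKM). This was the widest relative difference between litters among the 7. Windows at 87.13 Mb (850, 425 and 1270 alignments) and 87.35 Mb (966, 390 and 975) were lowest in litter 2. The remaining windows among the 10 highest fell below 1 RPKM in at least 1 litter. The window at 87.34 Mb held 856, 192 and 549 alignments and that at 87.00 Mb held 231, 451 and 321. The 10th is the window at 85.74 Mb described above. Together the 10 windows held 88.1%, 83.6% and 88.3% of the cluster's alignments in litters 1 to 3.

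**Figure D2:**
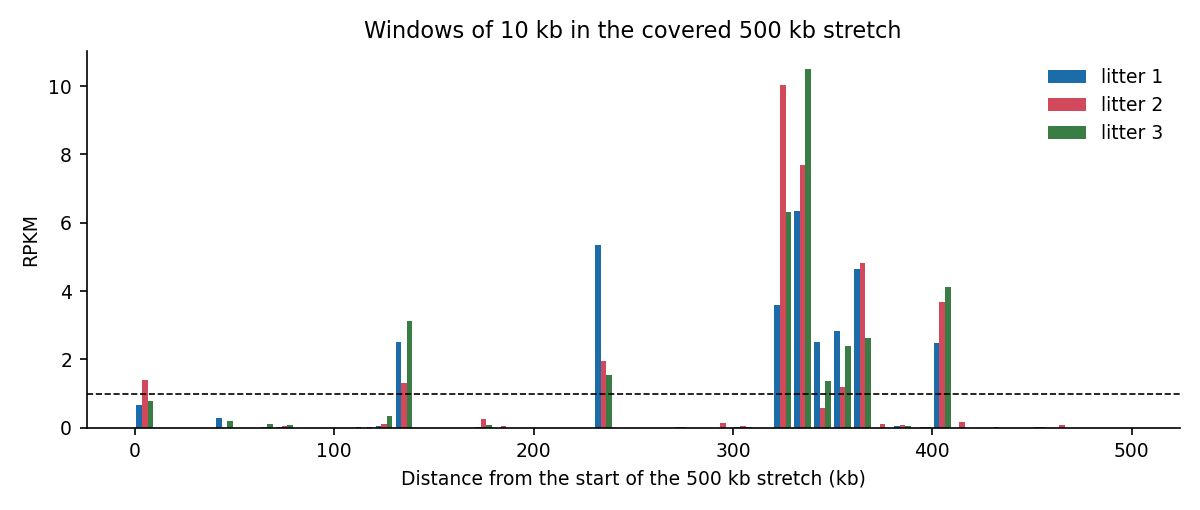
Density (RPKM, linear axis) of the 50 windows of 10 kb between 87.0 and 87.5 Mb, by distance from the start of this stretch, with 1 bar per litter and a dashed line at 1 RPKM. The highest windows, at 8.18 and 6.64 RPKM on average, adjoin each other, and 10 of the 50 windows had no alignment in any litter.

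Within the 500 kb stretch, 10 of 50 windows had no alignment in any litter and 20 had alignments in all 3. Empty windows numbered 21, 20 and 20 in litters 1 to 3. Outside it, 139 of 350 windows (39.7%) had none in any litter and 57 (16.3%) had some in all 3. The windows outside had at most 3 alignments in every litter in 262 of 350 cases (74.9%). Covered and empty windows thus lay side by side in the stretch as well.

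Covered bases were grouped into blocks, which are unbroken runs of bases covered in any litter. The cluster held 703 blocks over 83284 bases. Of these, 479 (68.1%) were covered in 1 litter, 110 (15.6%) in 2 and 114 (16.2%) in all 3. Blocks of a single litter had a median length of 72 bases and a median of 1 alignment. In 275 of the 479 there was only 1 alignment, and 300 were exactly 72 bases long. Blocks of 2 litters had a median of 99 bases and 6 alignments over the litters. Blocks of all 3 litters had a median of 154 bases and 22.5 alignments, and reached 2088 bases. Part of this difference is fixed by the definition, since a block of 1 alignment belongs to 1 litter and a block of all litters joins at least 3 alignments.

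The blocks of all litters carried most of the signal. They held 10428 of 12261 alignments in litter 1 (85.1%), 11411 of 12854 in litter 2 (88.8%) and 15079 of 15929 in litter 3 (94.7%), or 89.5% ± 4.85 (SD, n = 3). Blocks of a single litter held 4.88%, 6.59% and 2.90%. Litter 2 contributed 204 blocks of its own, litter 1 139 and litter 3 136. Litter 3, with the most nuclear alignments, had the fewest. Of the 114 blocks of all litters, 44 lay between 87.0 and 87.5 Mb and 70 in the rest of the cluster. Those 70 had a median of 129.5 bases and 16 alignments over the litters, and the longest had 489 bases.

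**Figure D3:**
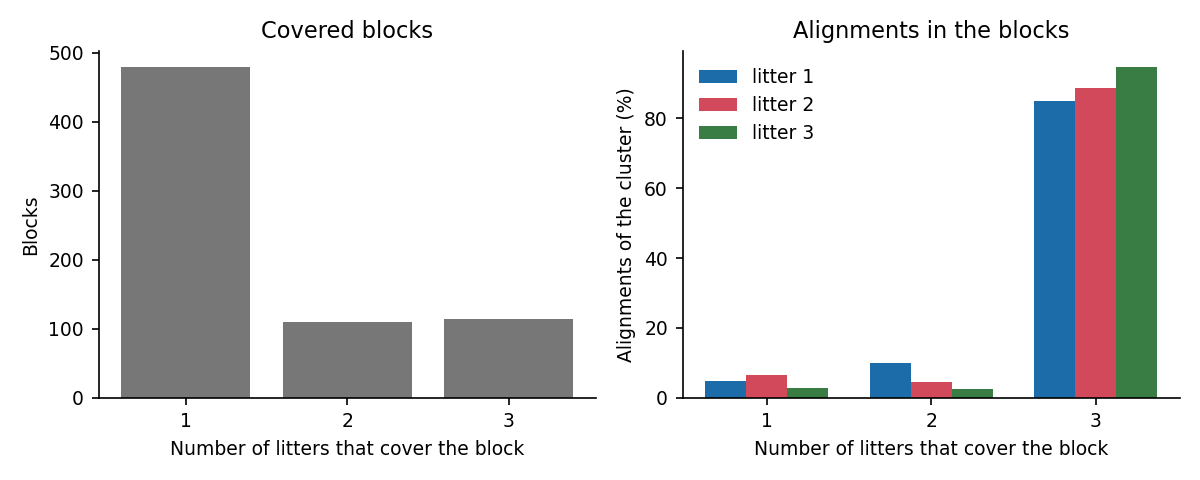
Left, the number of covered blocks by the number of litters that cover them (479, 110 and 114). Right, the share of each litter's alignments in the cluster that lies in each kind of block, where blocks of all 3 litters hold 85.1%, 88.8% and 94.7%.

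The 5 blocks of all litters with the most alignments lay between 87.2 and 87.4 Mb. The first, chr2:87329187-87330246, had 1457, 3623 and 3299 alignments in litters 1 to 3, at 648, 817 and 839 start positions. The second, chr2:87330659-87332746, had 1508, 1910 and 2585 alignments and was the longest of the cluster at 2088 bases. These 2 blocks are 412 bases apart. The block chr2:87366231-87366939 had 1384, 1536 and 1045 alignments, and chr2:87350203-87351058 had 913, 352 and 959. The block chr2:87235719-87236474 had 1429 in litter 1 against 436 and 430 in litters 2 and 3. All 5 were covered many times over in every litter, with a greatest depth of at least 75 in each.

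The 5 largest blocks of a single litter were far smaller. The block chr2:87335963-87336252 had 101 alignments in litter 1 at 66 start positions, and chr2:87328581-87329073 had 88 in litter 2 at 69. The block chr2:87409931-87410544 had 62 in litter 2. The others, chr2:85803436-85803605 and chr2:87337583-87337865, had 58 and 47 in litter 1. Each had 0 alignments in the other litters, where a count of 0 allows up to 3. Of these 5, 4 lay in the 500 kb stretch and chr2:85803436-85803605 lay outside it.

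Coverage does not record whether a read matched elsewhere, so recurring patterns of counts were searched for. Start positions with at least 20 alignments over the litters were compared, as neighbouring pairs up to 1000 bases apart, with all nuclear sequence outside the cluster. A pair was called recurring when the 3 litter counts of both positions and their distance were equal elsewhere in either orientation. Of 236 pairs in the cluster, 43 (18.2%) recurred, against 38.5% of 1257 pairs in the 4 Mb before it and 51.3% of 861 in the 4 Mb after it. A first, narrower search, in which both positions had to be directly adjacent starts, found 11 of 66 pairs (16.7%) in the cluster, against 46.7% of 553 and 57.2% of 589 in the flanks. It was widened after this outcome was seen, because it tested few pairs, and the cluster was below both flanks in each version. Copies inside the region searched were not counted, and copies with unequal counts are missed. A low share thus does not show that reads match only here. In the 2 leading blocks 1 of 77 and 1 of 79 pairs recurred. In chr2:87366231-87366939, 22 of 29 recurred, at up to 2 other places. In the neighbouring blocks chr2:87137338-87137515 and chr2:87137552-87137788, 5 of 6 and 8 of 13 recurred, at up to 3 places. In chr2:87403091-87403322, 6 of 24 recurred, at up to 2 places. The blocks chr2:87235719-87236474 and chr2:87350203-87351058 had no pair to test. For the recurring pairs of all these blocks, the cluster and the other places cannot be told apart as the source.

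Litters covered the same bases in part. A litter covered 1.03%, 1.21% and 0.969% of the cluster's 4000000 bases in litters 1 to 3, against 2.34%, 3.12% and 2.19% of the nuclear genome. Of the bases covered in a litter, 42.1% to 52.5% were also covered in another, taking each of the 6 ordered pairs of litters. The other litter covered 0.969% to 1.21% of the whole region. In the 4 Mb before the cluster 47.6% to 64.0% of a litter's covered bases were shared in this way, and in the 4 Mb after it 35.4% to 46.6%. There the other litter covered 2.61% to 3.51% and 3.70% to 4.84% of the sequence. In the cluster without the 500 kb stretch the shared part was 33.5% to 42.5%. Bases covered in all 3 litters numbered 15634, or 18.8% of those covered in any, and 53812 (64.6%) were covered in 1 litter. Outside the 500 kb stretch, 5918 bases (11.6%) were covered in all 3 litters and 36886 in 1 litter. Over the 400 windows, Spearman correlations of density between litters ranged up to 0.583, for litters 1 and 2, with 0.538 for litters 2 and 3 and 0.50 for litters 1 and 3. Windows share libraries and are not independent, and these values are a description.

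The density of the cluster was 0.0901, 0.0991 and 0.0984 RPKM in litters 1 to 3, or 0.0959 ± 0.00499 (SD, n = 3). The rest of chromosome 2 had 0.491 ± 0.0478 RPKM, which is 5.15 ± 0.788 fold higher. A window from 22.44 to 22.45 Mb held 35.3% ± 7.62 of the alignments of chromosome 2. Without that window the rest of the chromosome had 0.315 ± 0.0127 RPKM and was 3.29 ± 0.175 fold higher than the cluster. The 4 Mb before the cluster had 0.468 ± 0.0214 RPKM and the 4 Mb after it 0.362 ± 0.0397. These flanks were 4.89 ± 0.356 and 3.78 ± 0.432 fold higher. In each comparison the cluster was lower in 3 of 3 litters and the groups of values did not overlap. The log2 ratio was -2.35 ± 0.21 against the rest of the chromosome and -2.12 ± 0.08 against both flanks together. Flipping the signs of these ratios in an exact permutation test (two-sided) gave p = 0.25 for both, the smallest p that 3 litters allow.

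Without the 500 kb stretch, the 350 windows held 1557, 1854 and 2266 alignments in litters 1 to 3, and their density was 0.0131, 0.0163 and 0.0160 RPKM. The mean was 0.0151 ± 0.00179. Because the cluster's densest 500 kb is left out here, each flank was also taken without its own densest 500 kb. The 4 Mb before the cluster then had 0.2502 ± 0.00768 RPKM, 16.7 ± 2.38 fold higher than the 350 windows, and the 4 Mb after it had 0.197 ± 0.0105 RPKM, 13.1 ± 0.978 fold higher. The flanks lost 53.2% and 52.4% of their signal in this way and the cluster 86.2%. The flanks also held more blocks, at 1125 before and 1718 after against 703. The share of blocks covered in all 3 litters was 16.8% and 18.0% there, close to the 16.2% of the cluster. At least 1 RPKM in every litter was found in 17 windows before it and 16 after.

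The cluster was set among all 645 whole stretches of 4 Mb of the assembled chromosomes, laid on a grid in which it forms a stretch. In 184 of them (28.5%) the share of windows without alignments in any litter was higher than in the cluster. The density was lower in 88 of them (13.6%), of which 3 had no alignments at all. On chromosome 2, 5 of 45 stretches had a lower density. With every stretch taken without its own densest 500 kb, 17 of the 645 (2.64%) had a lower density than the cluster, at 0.0151 RPKM against a median of 0.155. The densest 500 kb held a larger share of the signal than in the cluster in 19 stretches, and its median share was 42.2%. The cluster's share of empty windows was 37.25% against a median of 31.5% over the stretches, and its density was 0.0959 RPKM against a median of 0.258.

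**Figure D4:**
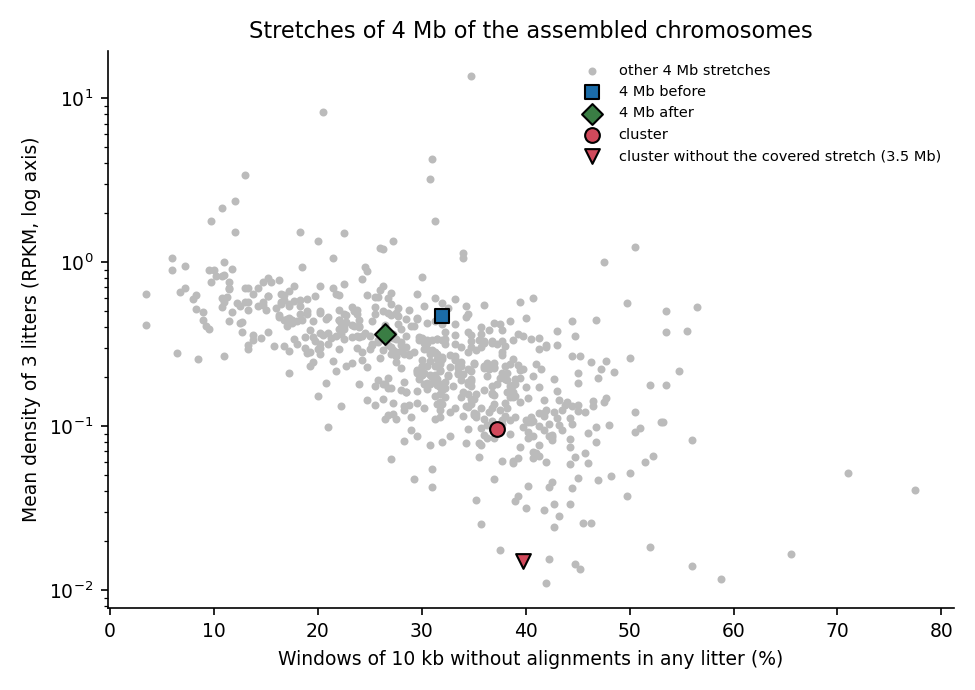
Density (mean RPKM of 3 litters, log axis) against the share of 10 kb windows without alignments in any litter, for stretches of 4 Mb of the assembled chromosomes (grey points, 3 stretches without alignments not drawn). The cluster (circle) lies at 37.25% and 0.0959 RPKM, and without its covered 500 kb (triangle) at 39.7% and 0.0151 RPKM, below the flanks (square and diamond). The other points are whole stretches, so that the triangle alone lacks its densest part.

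The level of the cluster can be given at several points of its distribution. These values cover all its sequence, and no gene was placed on the coverage. Alignments of receptor genes thus cannot be told apart from those of other genes, which may include Pramel7 and Pramel6. The median window had 0 alignments in every litter, and the upper quartile was 1, 3 and 1 alignments in litters 1 to 3. The 95th percentile was 0.0803, 0.155 and 0.138 RPKM, or 0.124 ± 0.0391 (SD, n = 3), against 1.07 ± 0.0666 over all nuclear windows. Outside the 500 kb stretch the 95th percentile was 0.0412, 0.0524 and 0.0335 RPKM. Away from blocks covered in all litters, the cluster held 1833, 1443 and 850 alignments over 3974 kb. This is 461, 363 and 214 alignments per Mb, or 0.0136, 0.0112 and 0.00528 RPKM in litters 1 to 3. The mean was 0.0100 ± 0.00426 RPKM. In a single 10 kb window such a mean would be near the limit of 3 alignments. Over the whole cluster 3 alignments are only 2.2e-05, 2.3e-05 and 1.9e-05 RPKM in litters 1 to 3, so that the pooled level lies far above its own limit. Leaving out blocks that every litter covers lowers this level by construction.

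The longest stretch without an alignment in any litter ran from 89025855 to 89087436, over 61582 bases. The next were 55737 bases from 88948425 and 46719 bases from 85811670. All 3 lie outside the stretch from 87.0 to 87.5 Mb.

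Many alignments shared their start position with an earlier one in the same library. Such repeated alignments were 54.1%, 57.9% and 64.2% of those in the cluster for litters 1 to 3. The mean was 58.7% ± 5.09 (SD, n = 3), against 70.4% ± 4.80 of all nuclear alignments. The share was 62.3% ± 5.15 between 87.0 and 87.5 Mb and 36.5% ± 9.95 in the rest of the cluster. The 4 Mb before the cluster had 61.2% ± 4.83 and the 4 Mb after it 55.5% ± 7.07. From the rest of the cluster (0.0151 RPKM) over the flank after (0.362), the flank before (0.468) and the 500 kb stretch (0.661), the mean share rose with density. In litter 1 the last 3 of these had 58.1%, 57.9% and 56.8%, so that the order did not hold there. The nuclear genome, at 0.367 RPKM, had the highest share and lies outside this order. Its mean density is fixed by the scaling and includes windows far denser than any of the cluster. Whether the share depends on density was not tested.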

How the data were processed

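Litters of 2-cell embryos were lysed directly, and libraries were made from SPIA-amplified, sheared cDNA, per the labels' protocols. Reads were aligned to mm9 with Bowtie, per the submitters' processing notes, with a version and a treatment of multiple matches not given in the sources used here. Each deposited file is a coverage track (signal), per the file headers, and its values are whole numbers of reads over a base. From it, ungapped alignments of 72 bases were recovered on every nuclear sequence with 0 negative starts. On simulated data 100% of 50000 positions were recovered.

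An alignment belongs to the window that holds its first base on the forward strand. On simulated data the block search gave 300 of 300 blocks their number of litters, and the recurrence search found 360 of 360 planted pairs. The annotation on hand is for GRCm38 and was used for names and gene order only, so marker genes of the embryo were not checked. Values are means with SD over litters, which are separate collections per the labels. The p-values reflect only the shared sign of the ratios and the number of litters, and do not measure the spread between these samples. The members, lists and comparisons were chosen with earlier results of these data known. Named windows are the 10 with the highest mean density, and named blocks are the 5 with the most alignments among those of all litters and of a single litter. Windows at the edges, the window at 22.44 Mb, blocks with recurring pairs, the limits of the Olfr neighbourhood, the 500 kb stretch and leaving out the densest 500 kb of other stretches were chosen after their values were seen. The search for recurring pairs was widened after its first outcome, and both versions are reported. Alternatives were window size, threshold, start positions, scaling, block joining, thinning, edges, flanks and leaving out litters. Calculations used numpy 2.4.6 and scipy 1.17.1, tables pandas 2.3.3 and figures matplotlib 3.10.9, under Python 3.11.15.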

Additional observations from a re-analysis of the deposited data

How the results depend on the processing

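No paired analysis was possible because the study has 1 group, so that no replicate block between groups could be fitted, while density ratios were taken within each litter. Of 96 alternatives, 68 stayed within their limit, 28 moved and 0 reversed. The limit was 1.5-fold for counts, the interval for empty windows, the direction and test for density ratios, and the SD over litters for other values. That SD was only 0.0895 percentage points for the place among 4 Mb stretches. The limit for density ratios takes no account of their size, so that -5.24 against -2.35 in the main setting counts among the 68. Ratios of 1 sign give the same test result for a given number of litters. The 68 thus do not measure how stable these ratios are. Without the 500 kb stretch, the 95th percentile of windows was 0.0424 RPKM, blocks of all litters numbered 70, windows of at least 1 RPKM in every litter numbered 0, the overlap of covered bases was 36.8% and repeated alignments were 36.5%. The log2 density ratio to the rest of chromosome 2 was then -5.02, and -5.24 without the 10 named windows, with the other sequence kept whole. Leaving out the densest 500 kb of the cluster and of each flank gave -3.89 against the flanks, and of every stretch a place of 2.64%. Windows without alignments in any litter were 60.25% at 5 kb and 14.5% at 20 kb, 71.5% had at most 3 alignments in every litter, and leaving out a litter gave 44.25% to 49.5%. The 95th percentile was 0.0824 RPKM at 5 kb and 0.191 at 20 kb. Windows at or above the threshold in all litters numbered 3 at 20 kb and 4 at 2 RPKM. With each start position counted once, the 95th percentile was 0.284 RPKM, the density outside blocks of all litters 0.0255 RPKM, and 16.7% of 4 Mb stretches were less dense than the cluster. That share was 22.4% with 2 Mb stretches, and 13.3% to 14.3% leaving out a litter. With gaps of up to 1000 bases joined, blocks of 1, 2 and 3 litters numbered 224, 60 and 67. When a litter counted only with 2 start positions, they numbered 228, 69 and 71. The density ratios kept their direction under every alternative run, and scaling by the median of ratios cancels in them by construction. Except where the setting itself leaves out windows or litters or changes the unit counted, the cause was not tested. Most windows lie at or under 3 alignments, so depth limits what an empty window shows.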
